A study of Ovis aries with 18 samples.

Results

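Whole blood of 6 sheep was exposed to lipopolysaccharide (LPS) or to phosphate-buffered saline (PBS, the control) outside the body, and the 6 LPS arrays were compared with the 6 PBS arrays of the same animals. These 12 arrays were chosen by treatment as given in the sample titles, out of 18 arrays in the series. The remaining arrays carried monophosphoryl lipid A, given to blood of the same animals, and are not described here. The study asked how blood of this species responds at the RNA level to agonists of toll-like receptor 4 (TLR4).

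Per the study's methods, the animals were healthy adult females, and venous blood was drawn into lithium heparin. In the LPS group, blood was incubated for 90 minutes with LPS, given as 1 µg in the labels. In the PBS group, blood of the same animals was incubated for the same time with PBS alone. No other agent, genotype or deletion is named in the labels. Each array held blood of 1 animal, with no pooling. The animals are called by their labels, 71Y, 51Y, 20, 170, 80 and 65Y. Blood in a tube lacks vessel walls, liver and marrow, so only cells already in the blood at the draw could respond.

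LPS is a glycolipid of the outer membrane of Gram-negative bacteria. It is handed by CD14 to TLR4 with its partner MD-2, and signalling through MyD88 and TRIF then frees NF-kB to enter the nucleus and switch on genes within minutes to hours. Monocytes and neutrophils carry most of this receptor in blood, and the early products include interleukins, tumour necrosis factor, chemokines that recruit neutrophils, and regulators that feed back on the pathway.

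Expression was read on 1-colour Agilent sheep arrays with 15008 non-control probes. The level of a probe is given below as its relative signal, which is the processed intensity divided by the 75th percentile of that array, so that a value of 1 is the 75th percentile. Changes are LPS minus PBS within an animal on the log2 scale, given as the mean ± SD over the 6 animals. A probe was tested when the scanner software marked it as well above background on all 6 arrays of either treatment, which left 3844 probes, 424 of them with a gene name (362 genes). Calls were made in limma with animal as a block, at an adjusted p (Benjamini-Hochberg, over all tested probes) under 0.05.

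The arrays differed in brightness. The PBS array of animal 170 had both the lowest 75th percentile (24.8) and the smallest share of probes well above background (23.9%). The highest values were 124.2 for the percentile, with PBS in animal 71Y, and 45.1% for the share, with PBS in animal 20. No probe was saturated on any array. Both arrays of an animal lay on 1 slide, with 2 animals on each of 3 slides, and the LPS array always took the position next after the PBS array, so position on the slide and treatment cannot be told apart. The median change over all tested probes was -0.01 overall and ranged from -0.46 in animal 170 to 0.36 in animal 71Y.

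The sample was checked as blood by its markers. HBB, the beta chain of haemoglobin, had relative signals with a lowest, median and highest value of 1200, 1348 and 5847 on the PBS arrays and 1114, 1933 and 5360 on the LPS arrays. The T cell receptor subunit CD3E, the granule protein granulysin (GNLY) and lysozyme (LYZ), which is abundant in monocytes and neutrophils, were well above background on all 12 arrays. None of the tested markers of T cells, NK cells, monocytes, neutrophils, red cells or eosinophils was called in limma, at an unadjusted p under 0.05 or by the methods' t-test (the paired test of the study, with thresholds on p and fold), with changes from -0.32 (CD14) to 0.33 (BAC5) for the brightest probe of each gene. The B cell and platelet markers on the array did not pass the filter, and no dendritic cell marker was on it with a name. In bulk blood, fewer cells of a type and less RNA per cell cannot be told apart.

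LPS changed few probes and nearly always upward. Of the 3844 tested probes 36 were called (0.937%), 32 of them higher with LPS (0.832%) and 4 lower (0.104%). Each of the 36 had the same sign of change in 6 of 6 animals, although the CXCL16 value of animal 71Y lay 0.23 below the median change of all tested probes in that animal. Over all tested probes, called or not, 85 were higher in 6 of 6 animals and 39 were lower. Called rises ran from 0.81 to 5.78 on the log2 scale, and of the 20 probes that were well above background on all PBS arrays 14 were more than 4-fold higher. Among the named probes 18 of 424 were called (4.25%), which stand for 14 genes, against 18 of 3420 unnamed probes (0.526%). For 7 probes on the array the name came from the study's table of genes that changed on these same arrays. The share of named probes called, and list counts that use those names, are therefore not independent of the response.

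**Figure D1:**
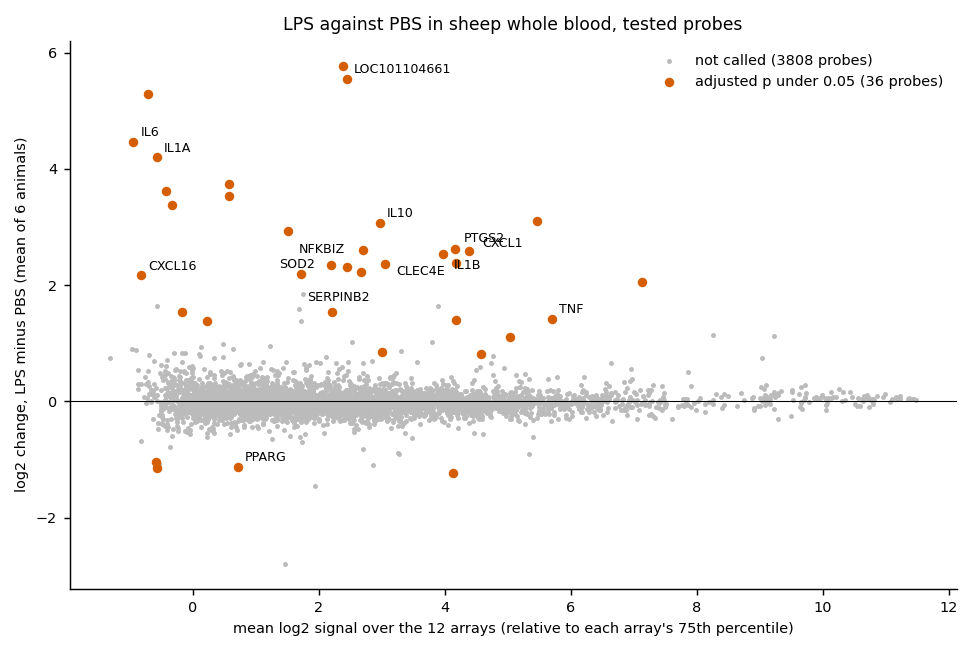
Change with LPS of each of the 3844 tested probes (vertical axis, log2, mean of 6 animals) against its mean log2 signal over the 12 arrays (horizontal axis, relative to the 75th percentile of each array). Orange points are the 36 called probes, labelled where they carry a gene name, and grey points the rest. The grey cloud lies around 0 at every signal level, and 32 of the 36 orange points lie above it.

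The filter bears on these counts. In both treatments 3293 probes were well above background on all arrays, and 22 of these were called (0.668%), 20 higher and 2 lower. A further 483 probes passed only through the LPS arrays, with 12 called, and 68 only through the PBS arrays, with 2 called. A probe that passed through 1 treatment alone was dim in the other by construction, so those calls are given as values and not as support.

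IL1A, IL1B, IL6, TNF and IL10 rose. Of 60 cytokine and growth factor genes on a list, 26 were on the array with a name, 7 were tested and 5 were called (71.4%, beside 0.937% of all tested probes), all higher, with a median change of 2.53 over the tested genes beside -0.01 over all tested probes. IL6 and IL1A passed the filter through the LPS arrays alone. Of the 5 listed genes that were well above background on all 12 arrays 3 were called, and with that filter the median was 1.42. The pair without a call, IL18 (of the interleukin-1 family) and MIF, had changes of -0.28 (-0.45 by a second IL18 probe) and 0.03.

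IL6, which drives fever and the acute phase response, had no PBS array on which it was well above background. Its relative signals there had a lowest, median and highest value of 0.0354, 0.130 and 0.230, and on the LPS arrays 1.18, 2.76 and 3.84. Every LPS array lay above every PBS array, and IL6 was at least 5.45-fold higher with LPS (measured change 4.47 ± 1.39, adjusted p = 0.00037). The bound sets the LPS mean against the dimmest signal that still counted as well above background on each PBS array, or the probe's own signal where that was higher.

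IL1A, an alarm cytokine that acts on the same receptor as IL1B, showed the same pattern of detection. Its signals were 0.0804, 0.175 and 0.235 with PBS, none of them well above background, and 0.991, 3.20 and 7.47 with LPS. It was at least 6.42-fold higher (measured change 4.21 ± 0.94, adjusted p = 8.5e-05). A second IL1A probe was well above background on 0 PBS and 5 LPS arrays and so was not tested. With the looser filter of 4 of 6 arrays it was at least 2.57-fold higher (measured change 3.16 ± 0.99, adjusted p = 0.0014).

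IL1B, the main secreted interleukin 1 of blood monocytes, was well above background on all PBS arrays. Its signals were 2.08, 6.20 and 27.4 with PBS and 17.7, 41.1 and 69.8 with LPS, a change of 2.53 ± 0.99 (adjusted p = 0.0026). The groups overlapped, because the PBS array of animal 71Y (27.4) lay above the LPS array of animal 65Y (17.7), while each animal rose against its own PBS array, by 1.35 in animal 71Y to 3.80 in animal 170. The PBS spots of animals 170 and 65Y carried an outlier mark of the scanner software. Without those spots the change was 2.47 (adjusted p = 0.011), and with the slide as block in place of the animal the adjusted p was 0.066.

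TNF, the early cytokine that activates endothelium and neutrophils, had the smallest rise of the called genes, with little spread. Its signals were 29.0, 30.8 and 38.4 with PBS and 68.2, 87.9 and 108.9 with LPS, with no overlap between the treatments. The change was 1.42 ± 0.35 (adjusted p = 0.0016), or 2.68-fold, and lay between 0.84 in animal 80 and 1.81 in animal 20. Within the slide of animals 80 and 65Y the change was 1.04 (adjusted p = 0.20), and without a filter on dim probes its adjusted p was 0.055.

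IL10, which restrains macrophages and dampens the output of the other cytokines, rose at the same time point as they did. Its brighter probe gave signals of 1.75, 2.69 and 3.77 with PBS and 16.1, 20.5 and 47.3 with LPS. The change was 3.08 ± 0.61 (adjusted p = 8.5e-05), or 8.45-fold, with no overlap. A second probe gave 2.94 ± 0.91 (adjusted p = 0.00052), also without overlap, and the probes differed by 0.03 to 0.97 within an animal.

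**Figure D2:**
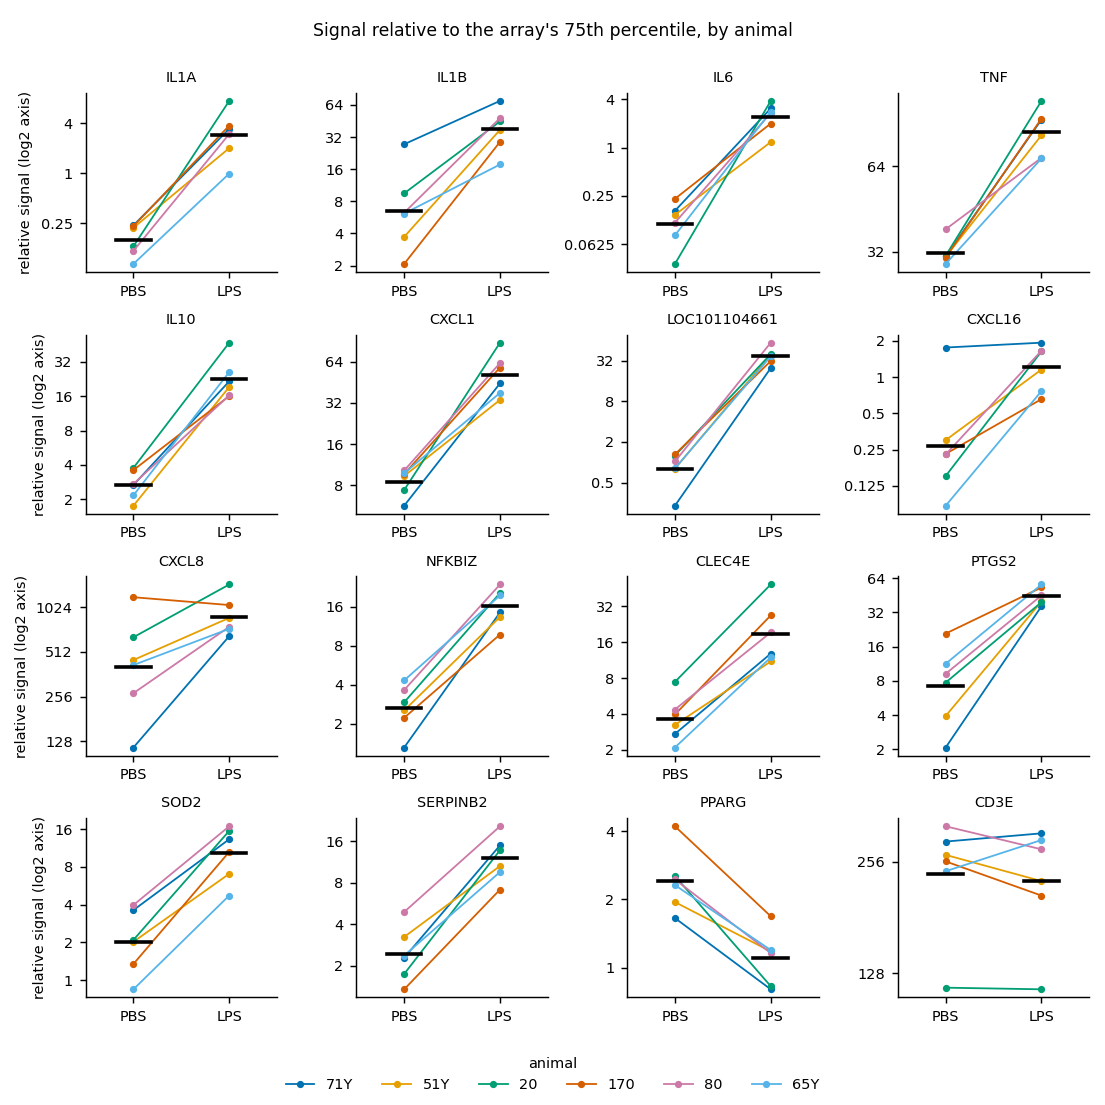
Relative signal on the PBS and the LPS array of each animal (vertical axes on a log2 scale, relative to the 75th percentile of the array), with 1 line per animal and black bars for the mean of the log2 values. The 14 called genes are shown with CXCL8 and the T cell gene CD3E, neither of which was called. For genes with several probes the brightest tested probe is drawn. TNF lies within a narrow range of 29.0 to 38.4 on the PBS arrays. PTGS2 lies between 2.07 and 20.8 on the PBS arrays and between 36.2 and 56.1 on the LPS arrays.

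Among the chemokines, small proteins that draw leukocytes along a gradient, 2 of 5 tested genes were called (40.0%, beside 0.937% of all tested probes) and both rose. One of these, CXCL16, passed the filter through the LPS arrays alone. The methods' t-test called 3 of the 5 (beside 67 of all 3844 tested probes), with CXCL8 the third. With array weights limma called 4 (beside 100 of all 3844). The list held 38 genes, 7 of them on the array with a name, and the median change of the tested genes was 1.12. CXCL1, a ligand of CXCR2 that recruits neutrophils, had signals of 5.69, 9.53 and 10.3 with PBS and 33.7, 51.3 and 88.1 with LPS. The change was 2.59 ± 0.64 (adjusted p = 0.00024), with all LPS arrays above all PBS arrays, and a second probe gave 2.38 ± 0.65 (adjusted p = 0.00038).

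The largest measured rise of any named probe belonged to LOC101104661, a protein-coding locus with no gene symbol in the annotation. IL6 and IL1A, known only by a lower bound, cannot be ranked against it. LOC101104661 lies on chromosome 6 of the sheep assembly ARS-UI_Ramb_v3.0. It is the next gene there after CXCL1, in a stretch that also holds CXCL8 and the platelet chemokine gene PPBP. Its signals were 0.227, 0.917 and 1.31 with PBS, where 5 of 6 arrays were well above background, and 24.8, 38.0 and 58.8 with LPS. No array of one treatment reached the other. The change was 5.55 ± 0.75 (adjusted p = 3.8e-06), or 46.9-fold, from 4.59 in animal 170 to 6.77 in animal 71Y, whose PBS signal was the lowest. The probe passed the filter through the LPS arrays alone, so this size is given as a value. Over the alternatives its change ran from 3.71 to 5.74. This probe and 1 unnamed probe described below were the only ones called under every alternative in which they were tested. The filter of all 12 arrays left both out.

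CXCL16, a membrane-bound chemokine that also acts as a scavenger receptor for oxidised lipid, lost its call more often over the alternatives than any other called gene with a name. With PBS its signals were 0.0854, 0.229 and 1.76, and only the array of animal 71Y was well above background. With LPS they were 0.656, 1.40 and 1.93. The change was 2.18 ± 1.24 (adjusted p = 0.032). It was 0.13 in animal 71Y, the animal with signal on its PBS array, where the median change of all tested probes was 0.36. The call was lost under 15 of 24 alternatives, among them values floored at the lowest detected signal (change 0.96) and leaving out animal 20 (adjusted p = 0.12), 51Y (0.12), 65Y (0.14) or 80 (0.17). Without 1 of these animals the change stayed between 1.92 and 2.22.

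CXCL8, the neutrophil attractant also known as interleukin 8, was not called in limma by either of its probes. The brighter one had signals of 116.2, 434.2 and 1194 with PBS and 653.7, 811.3 and 1455 with LPS, a change of 1.12 ± 0.87 (adjusted p = 0.23). The other gave 1.14 ± 1.12 (adjusted p = 0.55). CXCL8 was higher with LPS in 5 of 6 animals, and the exception was animal 170, whose PBS array held the highest CXCL8 signal of the 6. Relative to the median change of all tested probes in the same animal, the brighter probe was higher in 6 of 6 animals (0.28 in animal 170) and the other in 5. With array weights both probes were called (adjusted p = 0.0003 for each), and the methods' t-test called the brighter one. Without animal 170 both probes were called, with changes of 1.38 (adjusted p = 0.012) and 1.52 (adjusted p = 0.0075). The LPS spot of animal 170 for the second probe also carried an outlier mark, and without that spot alone its change was 1.52 (adjusted p = 0.033). XCL1, a lymphocyte chemokine, had changes of 0.58 and 0.46 by its probes, and CCL25, a chemokine of gut and thymus, -0.08 and 0.07, with none called in limma. With array weights a probe of XCL1 was called (change 0.64, adjusted p = 0.019).

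Regulators and receptors of the pathway were sparse on the array. NFKBIZ, a nuclear inhibitor-like protein that NF-kB induces and that is needed for a second wave of genes such as IL6, was 1 of 3 tested genes of the NF-kB list. Its signals were 1.31, 2.73 and 4.31 with PBS and 9.73, 16.9 and 23.7 with LPS. The change was 2.61 ± 0.50 (adjusted p = 9.1e-05) without overlap. PELI1, an E3 ligase that acts on IRAK proteins, had a change of 0.52 ± 0.37 (adjusted p = 0.68), and ZFP36, which speeds decay of cytokine mRNA, -0.07 ± 0.21. With array weights PELI1 was called (change 0.63, adjusted p = 0.016). NFKBIA, the inhibitor that holds NF-kB in the cytoplasm, did not pass the filter, with 3 PBS and 5 LPS arrays well above background. The 2 tested genes of the TLR4 list, CD14 and IRAK4, had changes of -0.32 ± 0.22 (-0.18 by a second CD14 probe) and 0.05 ± 0.50, and neither was called in limma, at an unadjusted p under 0.05 or by the methods' t-test. TLR4 itself was well above background on 1 PBS and 1 LPS array.

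CLEC4E, the C-type lectin Mincle that senses mycobacterial glycolipid and dying cells, was 1 of the 3 called genes whose change spread least over the animals, with TNF and PPARG, while IL6, CXCL16 and IL1B spread most. IL6 and CXCL16 were well above background on 0 and 1 PBS arrays, so their spread depends on background levels and is not comparable with that of detected genes. The brighter CLEC4E probe gave signals of 2.09, 3.60 and 7.44 with PBS and 11, 16.1 and 48.9 with LPS. The change was 2.36 ± 0.38 (adjusted p = 8.5e-05), and all LPS arrays lay above the PBS arrays. A second probe gave 2.23 ± 0.37 (adjusted p = 9.1e-05). TLR6, a partner of TLR2 and the other tested gene of the pattern recognition list, had changes of -0.09 ± 0.30 and -0.21 ± 0.51 by its probes.

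Of the eicosanoid, oxidant defence and tryptophan enzymes 2 of 5 tested genes were called (40.0%, beside 0.937% of all tested probes). These were PTGS2 and SOD2, both higher, and the median change over the 5 was 0.68. PTGS2, the inducible cyclooxygenase that starts prostaglandin synthesis, had signals of 2.07, 8.47 and 20.8 with PBS and 36.2, 42.4 and 56.1 with LPS. The treatments did not overlap, and the change was 2.63 ± 0.97 (adjusted p = 0.0018). The spread between animals, as SD of the log2 level, was 1.17 with PBS and 0.25 with LPS, and the change ran from 1.35 in animal 170, with the highest PBS level, to 4.12 in animal 71Y, with the lowest. A second PTGS2 probe was well above background on 0 PBS and 2 LPS arrays and was not tested. Over the 22 called probes that were well above background on all 12 arrays, the SD was smaller with LPS for 11, and over all 3293 such tested probes it was smaller for 73.3%.

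SOD2, the mitochondrial superoxide dismutase and a classic target of NF-kB, had signals of 0.844, 2.06 and 3.97 with PBS and 4.73, 11.9 and 16.9 with LPS. The change was 2.35 ± 0.51 (adjusted p = 0.00019) with no overlap. A second probe gave 2.19 ± 0.52 (adjusted p = 0.00026) with overlap between the treatments. KYNU, an enzyme of tryptophan breakdown, had signals of 2.16, 4.29 and 9.31 with PBS and 5.31, 6.88 and 8.33 with LPS. Its change of 0.68 ± 0.60 was not called (adjusted p = 0.67), and the highest value of all 12 arrays was the PBS array of animal 170. Without that animal the change was 0.88 (adjusted p = 0.025). GPX1 and TXN, which act on peroxides and on protein thiols, had changes of -0.11 and -0.06.

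SERPINB2, plasminogen activator inhibitor 2 of activated monocytes, stood outside the lists. Its signals were 1.35, 2.33 and 4.92 with PBS and 7.16, 12.2 and 20.6 with LPS, a change of 2.32 ± 0.48 (adjusted p = 0.00018), and the treatments did not overlap.

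**Figure D3:**
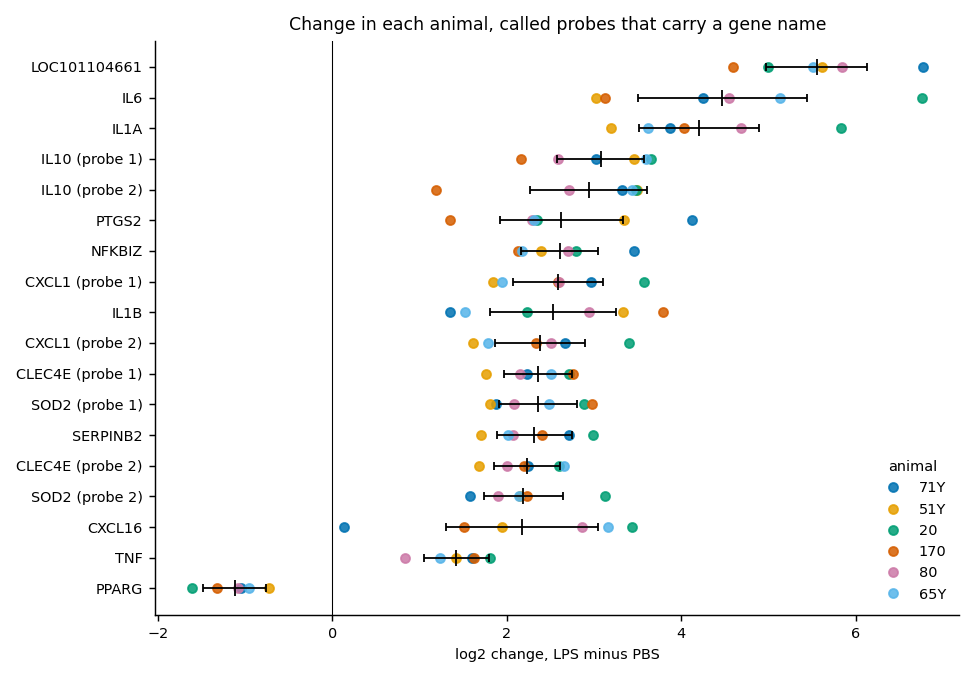
Log2 change of LPS minus PBS in each animal (coloured points) for the 18 called probes that carry a gene name, with the mean and its 95% interval from limma (black bars). Probes of a gene are numbered by size of change. All points of the 17 probes that rose lie above 0 and all of PPARG below it. The points of CXCL16 run from 0.13 to 3.44, and those of TNF from 0.84 to 1.81.

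PPARG was the only named gene called lower. It encodes a nuclear receptor that governs fat storage and curbs inflammatory gene expression in macrophages. Its signals were 1.66, 2.38 and 4.20 with PBS and 0.804, 1.17 and 1.69 with LPS. The change was -1.12 ± 0.31 (adjusted p = 0.0068), negative in 6 of 6 animals and between -1.61 in animal 20 and -0.72 in animal 51Y. The treatments overlapped narrowly, at 1.66 on the PBS array of animal 71Y and 1.69 on the LPS array of animal 170. Without the animal block the adjusted p was 0.074, and with the slide as block it was 0.13. None of the 5 other tested genes of the nuclear receptor and lipid list was called, and ABCG2, FABP5, PLIN2 and CPT2 had changes of -0.24 to 0.29.

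The called probes without a gene name included the largest measured rise of all. Probe A_70_P003541 had signals of 0.230, 0.660 and 2.90 with PBS and 19.7, 40.1 and 77.0 with LPS, a change of 5.78 ± 0.80 (adjusted p = 3.8e-06), or 54.9-fold. It was well above background on 5 PBS arrays and passed the filter through the LPS arrays alone, so this size is given as a value. Over the alternatives its change ran from 3.69 to 6.34. All LPS arrays lay far above the PBS arrays. Probe A_70_P019681 had no PBS array well above background and signals of 0.813, 3.5 and 10.9 with LPS, at least 8.48-fold higher (measured change 5.29 ± 2.17, adjusted p = 0.0022). With floored values its adjusted p was 0.067.

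A further 4 unnamed probes followed by size. A_70_P005636 had a change of 3.74 ± 0.74 (adjusted p = 8.4e-05), A_70_P012436 of 3.63 ± 0.95 (adjusted p = 0.00019), A_70_P006161 of 3.53 ± 1.52 (adjusted p = 0.0037) and A_70_P058706 of 3.38 ± 0.93 (adjusted p = 0.00024). Each was well above background on 2 or 3 PBS arrays and on all LPS arrays, and none overlapped between the treatments. The 9 other unnamed probes that rose had changes from 0.81 to 3.10.

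The 3 unnamed probes that fell were closer to the threshold than most that rose. A_70_P035666 had signals of 16.4, 30.6 and 40.4 with PBS and 6.14, 11.9 and 19.3 with LPS, a change of -1.24 ± 0.56 (adjusted p = 0.024). Its PBS spot of animal 65Y carried an outlier mark, and without it the adjusted p was 0.070. The call was also lost when animal 20 (adjusted p = 0.11), 65Y (0.10) or 80 (0.10) was left out, while the change stayed at -1.27 to -1.24. The other 2 passed the filter through the PBS arrays alone, so their changes are given as values only. A_70_P044206, well above background on 3 LPS arrays, had signals of 0.689, 0.931 and 1.62 with PBS and 0.290, 0.455 and 0.752 with LPS. Its change was -1.15 ± 0.42 (adjusted p = 0.013). The call was lost without animal 20 (change -1.11, adjusted p = 0.096) and with all 18 arrays in the fit (adjusted p = 0.33). A_70_P053281, well above background on 2 LPS arrays, had signals of 0.570, 1.01 and 1.40 with PBS and 0.248, 0.454 and 0.856 with LPS. Its change was -1.04 ± 0.44 (adjusted p = 0.032). It lost its call without animal 20 (0.097), 51Y (0.13), 71Y (0.095) or 80 (0.17), with changes of -1.11 to -0.98. With floored values its change was -0.78 (adjusted p = 0.13).

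Without overlap, every LPS array lay above every PBS array for 26 tested probes (0.676%), 25 of which were called, and below it for 1 probe (0.026%). Several of the 26, IL6 and IL1A among them, passed the filter through the LPS arrays alone. The 1 probe below, A_70_P026211, passed through the PBS arrays alone. For such probes the lack of overlap is partly built in by the filter. Just past the threshold, unnamed probe A_70_P009776 had a change of 1.65 (adjusted p = 0.0503). ATP1B1, a subunit of the sodium pump, had a change of 1.02 (adjusted p = 0.071) and RCAN1, an inhibitor of calcineurin, of 1.03 (adjusted p = 0.091). The largest uncalled fall was that of A_70_P026211, at -2.79 (adjusted p = 0.071). These genes and probes were chosen after their values were seen.

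Some genes crossed the detection limit only. Well above background on 0 PBS arrays and at least 4 LPS arrays were 9 probes, 6 of them named, and the reverse held for 0 probes. Besides IL6 and the IL1A pair these included both probes of PTX3, a long pentraxin that opsonises microbes, and the probe of CSF2, the growth factor GM-CSF. PTX3 was well above background on 4 LPS arrays. With the looser filter of 4 of 6 arrays, under which 33 of 4696 probes were called (0.703%), its brighter probe was at least 1.78-fold higher (measured change 2.76, adjusted p = 0.0073). The other was higher by at least 1.20-fold (measured change 2.40, adjusted p = 0.025). CSF2 was at least 2.35-fold higher (measured change 3.30 ± 2.0, adjusted p = 0.067), and animals 51Y and 65Y had no LPS signal well above background for it or for the brighter PTX3 probe. The unnamed members of this set that were not called, A_70_P042581 and A_70_P038836, were at least 1.06-fold and 1.23-fold higher (measured changes 0.94 and 0.79).

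Early response and transcription regulators gave 0 calls in the main limma fit and 3 with array weights. The latter were the brighter MYC probe (adjusted p = 0.0041), BTG2 (adjusted p = 0.0064) and ETS2. Of 62 listed genes 12 were on the array with a name and 8 were tested, with a median change of 0.16. At an unadjusted p under 0.05 there were 3, beside 149 of all 3844 tested probes. The methods' t-test gave 2 (MYC and ETS2), beside 67 of all 3844. MYC, a driver of cell growth, had a change of 0.82 ± 0.44 by its brighter probe (adjusted p = 0.12), higher in 6 of 6 animals, and of 0.83 ± 0.94 by the other (adjusted p = 0.87). ETS2, an effector of the MAP kinase pathway, had 0.79 ± 0.48 (adjusted p = 0.18), also higher in all animals, and the antiproliferative gene BTG2 had 0.58 ± 0.51 (adjusted p = 0.78). For ETS2 and BTG2 animal 170 had the highest PBS signal and the smallest change, 0.09 and -0.27. Relative to the median change of all tested probes in that animal these were 0.55 and 0.18, and the smallest ETS2 value was then that of animal 65Y (0.44). ETS2 was called without animal 170 (change 0.93, adjusted p = 0.021), with cyclic loess (adjusted p = 0.032), with array weights (adjusted p = 0.00056) and with centring on the median of the tested probes (adjusted p = 0.028). ATF4, GATA3 and CREM had changes between -0.02 and 0.12 by their probes.

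The interferon response, which LPS can set off through the TRIF arm and secreted interferon, gave 0 calls among 4 tested of 49 listed genes in limma. ISG15 had a change of 0.54 ± 0.64, and at an unadjusted p under 0.05 it was the only one of the 4, while the methods' t-test gave 0. With array weights ISG15 was called (adjusted p = 0.015). MX1, TAP2 and IRF2 had changes of 0.04, -0.24 and -0.01. Cytokine and chemokine receptors (4 tested, median -0.08), antigen presentation genes (5 tested, median -0.05) and adhesion, granule and protease genes (7 tested, median 0.01) also gave 0 calls in limma, 0 at an unadjusted p under 0.05 and 0 by the methods' t-test. None of the 9 listed complement and coagulation genes on the array passed the filter, nor did the 1 listed apoptosis gene. In all, 12 of 58 distinct tested genes of these lists were called (20.7%), beside 4.25% of the named probes and 0.937% of all tested probes. The first share counts genes and the others count probes. Among the called genes IL6, IL1A and CXCL16 passed the filter through the LPS arrays alone, so their calls are not support.

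**Figure D4:**
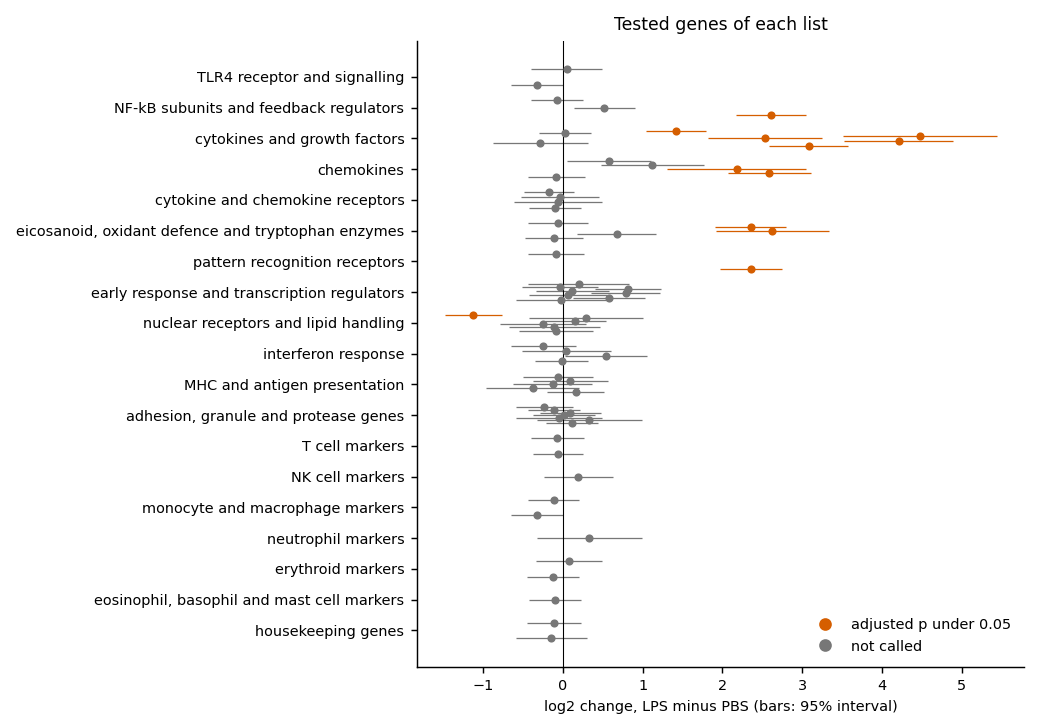
Log2 change with LPS of each tested gene, by list (1 point per gene, brightest tested probe, bars for the 95% interval of limma). Orange points were called and grey points were not. The orange points lie in 6 lists, with 5 of the 7 tested cytokines and growth factors among them, and the markers of blood cell types and the housekeeping genes are all grey.

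The 16 genes that the study listed as responding in both species gave 9 calls among 13 tested in limma (69.2%, beside 0.937% of all tested probes), all higher, with a median change of 2.35. Of the 10 that were well above background on all 12 arrays 6 were called, and with that filter the median was 1.89. Those genes were picked from these arrays, so the count is not independent evidence of its direction. Its tested genes without a call in limma were CXCL8, KYNU, ETS2 and BTG2. The methods' t-test called 12 of the 13, all but BTG2 (beside 67 of all 3844 tested probes), and limma with array weights all 13 (beside 100). PTX3, INHBA and NFKBIA did not pass the filter. INHBA, a subunit of activin A, was well above background on 2 or 3 arrays of each treatment.

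The animals differed in the size of the response. Over the 32 probes called higher, the median change was 2.05 in animal 51Y, 2.15 in animal 170, 2.50 in animal 65Y, 2.54 in animal 80, 2.69 in animal 71Y and 3.06 in animal 20. Animal 20 had the largest change for 14 of these probes, animal 170 the smallest for 14 and animal 51Y the smallest for 12. This order partly changed relative to the median change of all tested probes in each animal. The medians were then 2.15 in animal 51Y, 2.33 in animal 71Y, 2.34 in animal 65Y, 2.60 in animal 170, 2.63 in animal 80 and 2.99 in animal 20, and animal 170 had the smallest change for 8 probes. For probes dim on the PBS arrays the size in an animal depends on the background level of its PBS array. In animal 170 the changes of all tested probes also spread most, with a median absolute deviation of 0.509 against 0.146 to 0.319 in the others. Its PBS array was the dimmest of the 12, and the part of this in its smaller changes was not tested.

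**Figure D5:**
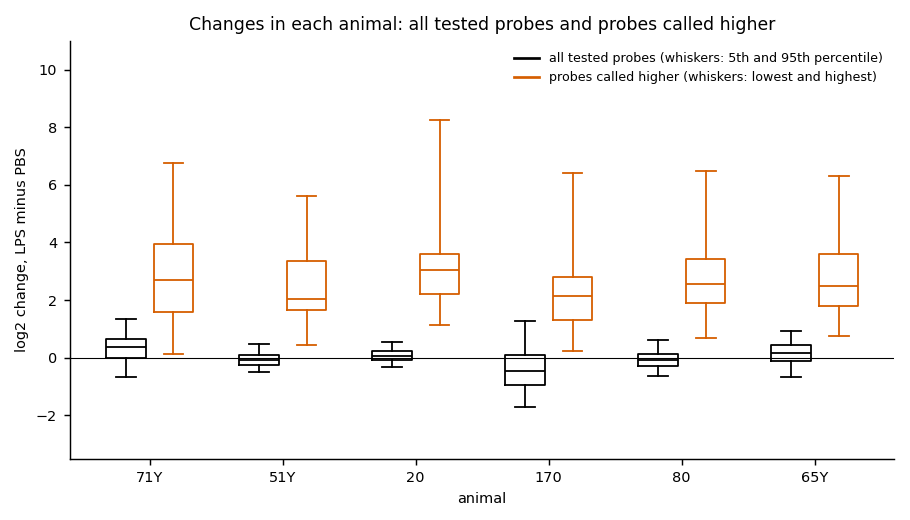
Log2 change of LPS minus PBS in each animal for all 3844 tested probes (black boxes, whiskers at the 5th and 95th percentile) and for the 32 probes called higher (orange boxes, whiskers at the lowest and highest). Boxes span the quartiles and lines mark the medians. The orange medians lie between 2.05 and 3.06, and the black medians between -0.46 in animal 170 and 0.36 in animal 71Y.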

How the data were processed

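Scanner files of all arrays were deposited, made by the authors with Agilent Feature Extraction 11.5.1.1 from 1-colour hybridisations of amplified RNA, and the intensity used here is its background-subtracted processed signal. They also deposited a table of ratios, each probe's signal over a divisor near the 75th percentile of its array. No column of the table was unmapped to a sample. Control spots were left out, spots of a probe were averaged (50 probes had 5 spots each), and log2 of the signal minus that of the array's 75th percentile was taken. Spots with outlier marks were kept, and an alternative left them out.

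The 12 arrays of LPS and PBS entered a fit with treatment and animal as fixed terms (lmFit and eBayes of limma 3.58.1 in R 4.3.3), with two-sided tests. The titles name the animal, and deviations from the treatment means correlated between the arrays of an animal at 0.14 (animal 170) to 0.88 (animal 20), mean 0.62. The LPS array of animal 170 correlated best with the PBS array of animal 71Y, and that of animal 65Y with the PBS array of animal 170. In the other animals the LPS array correlated best with the animal's own PBS array. Deposited p-values were not used. The script was tested on simulated data. The number of arrays limits the precision.

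Names came from RefSeq accessions matched to the gene table of assembly ARS-UI_Ramb_v3.0 (1265 of 2200 probes with an accession) and, for 7 probes, from the study's table, which gave 949 genes. Every called gene was named, with the 6 unnamed probes of largest rise and all that fell, genes that crossed the detection limit, and genes of the lists. The comparison, its members and the gene lists were chosen with earlier results of these data known. Each gene of a list stood by its brightest tested probe, and a list was described by counts and its median, without a test.

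Alternatives covered background correction, quantile and cyclic loess normalization, the ratios of the authors' table, the filter, the block, the slide, array weights, the prior on the variance, floored values, the t-test of the study's methods (with a fold threshold of 1.5) and each animal left out. Centring on the median of the tested probes was added after seeing the data. Promoter sequences were not analysed here, and some genes of the lists are not reported here by name.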

Additional observations from a re-analysis of the deposited data

Results flagged for a closer look

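In 10 of 118 sets of 6 values, 1 per animal, the value of a single animal lay far from the other five by Dixon's criterion, which chance alone meets in about 1 of 20 sets. In 8 of the 10 the animal was 170, whose PBS array was the dimmest and whose median change over all tested probes was -0.46. The criterion was applied before this shift was removed. Relative to that median, its IRF2 change was 0.01 and no longer the lowest, and the other flagged values are given below. Its change lay below the others for a probe of CD86 (-1.88 against -0.31 to 0.34). By the other CD86 probe, relative to each animal's median, it was the highest (0.43 against -0.82 to 0.16). The change of animal 170 also lay below the others for both probes of FAS (-0.98 against -0.08 to 0.42, and -1.47 against -0.07 to 0.40). It was lower for a probe of TLR6 (-1.18 against -0.15 to 0.33) and for IRF2 (-0.45 against -0.03 to 0.19). For the called probe A_70_P035666 it was lower as well (-2.30 against -1.25 to -0.72). It was also lower for the second probe of IL10 (1.19 against 2.71 to 3.49). It was higher for GAPDH (0.36 against -0.29 to -0.07), where the LPS spot of animal 170 carried an outlier mark. Animal 65Y stood apart for PELI1 (-0.18 against 0.49 to 0.83) and animal 51Y for LYZ (-0.48 against -0.14 to 0.05). Relative to each animal's median, animal 170 and the nearest other animal had -0.72 and -0.51 for TLR6. They had -1.42 and -0.34 for the first CD86 probe, and 1.64 and 2.80 for IL10. For the FAS probes they had -0.52 and 0.02, and -1.01 and -0.17. For A_70_P035666 they had -1.84 and -1.41, and for GAPDH 0.82 and 0.02. PELI1 was then -0.34 in animal 65Y and 0.39 in the nearest, and LYZ -0.38 in animal 51Y and -0.32 in the nearest.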

How the results depend on the processing

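The count of called probes was 36. It fell to 22 with the filter of all 12 arrays, by construction with fewer probes tested, to 10 with the methods' t-test after Benjamini-Hochberg adjustment and to 2 with normexp background correction, which also moved the median change of all tested probes to -0.19. The methods' t-test at its own thresholds on p and fold, without adjustment, gave 67 probes (57 higher, 10 lower), and array weights gave 100 (88 higher, 12 lower). Within slides the counts were 10, 38 and 42, with 2 animals each. All 36 probes kept their direction on each slide, which their same sign in 6 of 6 animals fixed in advance. Leaving out 1 animal gave 28 to 56 probes, and the 56 came without animal 170 and held all 36. Without the replicate block, that is without pairing by animal, 27 probes were called, 26 of them shared. The other alternatives gave 24 to 45. The cause was not tested for these differences. Among 2851 recomputed single-probe values no called one changed sign, 162 of probes without a call did, 191 lost and 19 gained a call. Of 242 list medians 13 moved beyond their spread, 6 of them under normexp, which was run on the median spot signal with an offset of 50.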
